A study of Mus musculus with 6 samples.

Results

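The 10 genes described here mark the GABAergic interneurons of the cerebral cortex and their classes. They were taken by symbol from the deposited count table, by a rule that uses no measured value although earlier results of these data were known, and all 10 of them were found among its 47728 genes, each under a single Ensembl identifier. Gad1, Gad2 and Slc32a1 are shared by all interneurons, whereas Pvalb, Sst, Vip, Npy, Reln, Lamp5 and Cck each label part of them. The libraries were made from flash frozen cortex of FAD5x mice (3 libraries), a model of Alzheimer's disease, and of wild-type C57BL/6 mice (3 libraries, called Control). As commonly used, this model carries human transgenes with familial disease mutations behind a neuronal Thy1 promoter, although the labels list no alleles. Age, sex, batch and the number of animals are not given in the sources used here. P-values therefore speak only of the spread among 6 libraries, part of which may be technical.

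Interneurons make GABA, the main inhibitory transmitter of the adult brain, from glutamate, load it into vesicles and release it onto excitatory cells and onto each other. Cells with parvalbumin and cells with somatostatin arise in the medial ganglionic eminence of the embryo and inhibit the cell body and the dendrites of pyramidal cells. Cells with VIP, Lamp5, reelin or cholecystokinin arise mostly in the caudal eminence, and VIP cells act largely on other interneurons. None of these transcripts is confined to cortical interneurons: GABAergic neurons of the striatum and the olfactory bulb contain the GABA-synthesising enzymes, mitral cells of the bulb contain reelin, and cortical pyramidal cells contain Cck.

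The sequences just before 4 of these genes are shown. Reln was the member whose groups differed, and Gad1 shared part of its order of libraries. Sst is a peptide gene with the letters of a full cyclic AMP response element, TGACGTCA. Vip is a peptide gene with only the TGACG part of it, which the Cck and Gad2 windows, not shown, also held. Each sequence is the RefSeq window on build GRCm38.p6, from 250 bases before to 50 bases after the annotated start, on the strand of the gene. All 10 members had such a window, and Lamp5 and Pvalb had more than 1. In the first pair the capitals mark GGGCGG on either strand, the letters of a GC box, and in the second pair TGACG on either strand, which overlap in a full TGACGTCA element.
Reln, chr5:22344656-22344955, minus strand: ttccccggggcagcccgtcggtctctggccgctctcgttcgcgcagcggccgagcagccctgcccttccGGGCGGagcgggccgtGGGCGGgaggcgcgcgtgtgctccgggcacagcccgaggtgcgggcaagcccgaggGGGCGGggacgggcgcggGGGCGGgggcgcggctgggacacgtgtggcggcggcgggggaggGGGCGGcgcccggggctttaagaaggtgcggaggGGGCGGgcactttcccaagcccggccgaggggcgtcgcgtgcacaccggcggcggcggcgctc
Gad1, chr2:70561879-70562178, plus strand: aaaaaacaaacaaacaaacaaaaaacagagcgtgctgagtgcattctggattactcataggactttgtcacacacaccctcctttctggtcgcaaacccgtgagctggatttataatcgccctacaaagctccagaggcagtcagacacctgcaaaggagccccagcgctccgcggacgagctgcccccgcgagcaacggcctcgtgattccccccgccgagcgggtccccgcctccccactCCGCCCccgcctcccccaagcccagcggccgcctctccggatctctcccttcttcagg
Sst, chr16:23890795-23891094, minus strand: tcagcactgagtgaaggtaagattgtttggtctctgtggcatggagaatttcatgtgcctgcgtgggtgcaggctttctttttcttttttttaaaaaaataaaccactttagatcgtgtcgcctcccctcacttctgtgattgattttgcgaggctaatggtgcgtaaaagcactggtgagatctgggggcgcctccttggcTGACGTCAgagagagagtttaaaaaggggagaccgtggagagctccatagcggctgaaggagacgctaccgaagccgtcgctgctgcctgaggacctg
Vip, chr10:5638968-5639267, plus strand: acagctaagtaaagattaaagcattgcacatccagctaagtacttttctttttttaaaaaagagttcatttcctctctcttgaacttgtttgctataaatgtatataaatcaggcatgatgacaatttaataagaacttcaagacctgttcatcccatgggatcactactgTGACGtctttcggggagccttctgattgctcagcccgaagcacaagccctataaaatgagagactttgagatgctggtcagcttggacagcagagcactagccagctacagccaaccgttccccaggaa
The Reln window was 80.7% G and C with 47 CpG dinucleotides and 6 GC boxes, against a median of 52.7% G and C over 32851 windows of this length. The Gad1 window was 60.0% G and C with 21 CpG dinucleotides and 1 GC box, and 35.7% of all windows held at least 1 GC box. The Sst window was the only member window with the full TGACGTCA, which 1.79% of all windows held, and it began 48 bases before the start. The Vip window held TGACG once, beginning 79 bases before the start, and TGACG stood in 20.8% of all windows. The Cck and Gad2 windows each held TGACG once, both on the opposite strand, 47 and 33 bases before the start. These matches describe letters and are not measured binding sites.

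In FAD5x cortex 1 of the 10 interneuron genes, Reln, was lower, and the other 9 did not pass the test. Over all 17074 tested genes, 3.15% were called at an adjusted p below 0.05 in either direction (edgeR quasi-likelihood test, Benjamini-Hochberg adjustment) with 1.39% lower and 1.76% higher. The share of members called, 1 of 10, rests on a single gene. No member was called higher by edgeR, with 0 higher at an unadjusted p below 0.05, 0 by limma-voom and 0 by DESeq2, which in all called 2.76% and 8.70% of their genes. The log2 fold change of FAD5x over Control was below 0 in 7 members and above 0 in 3, with a median of -0.15, against 0.02 over all tested genes, of which 8273 lay below 0. At an unadjusted p below 0.05, 10.1% of all tested genes were lower and 11.2% higher, which is the background for such counts in each list below. Levels below are in CPM (counts scaled to a common library total), and each log2 fold change carries its standard error (SE).

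**Figure D1:**
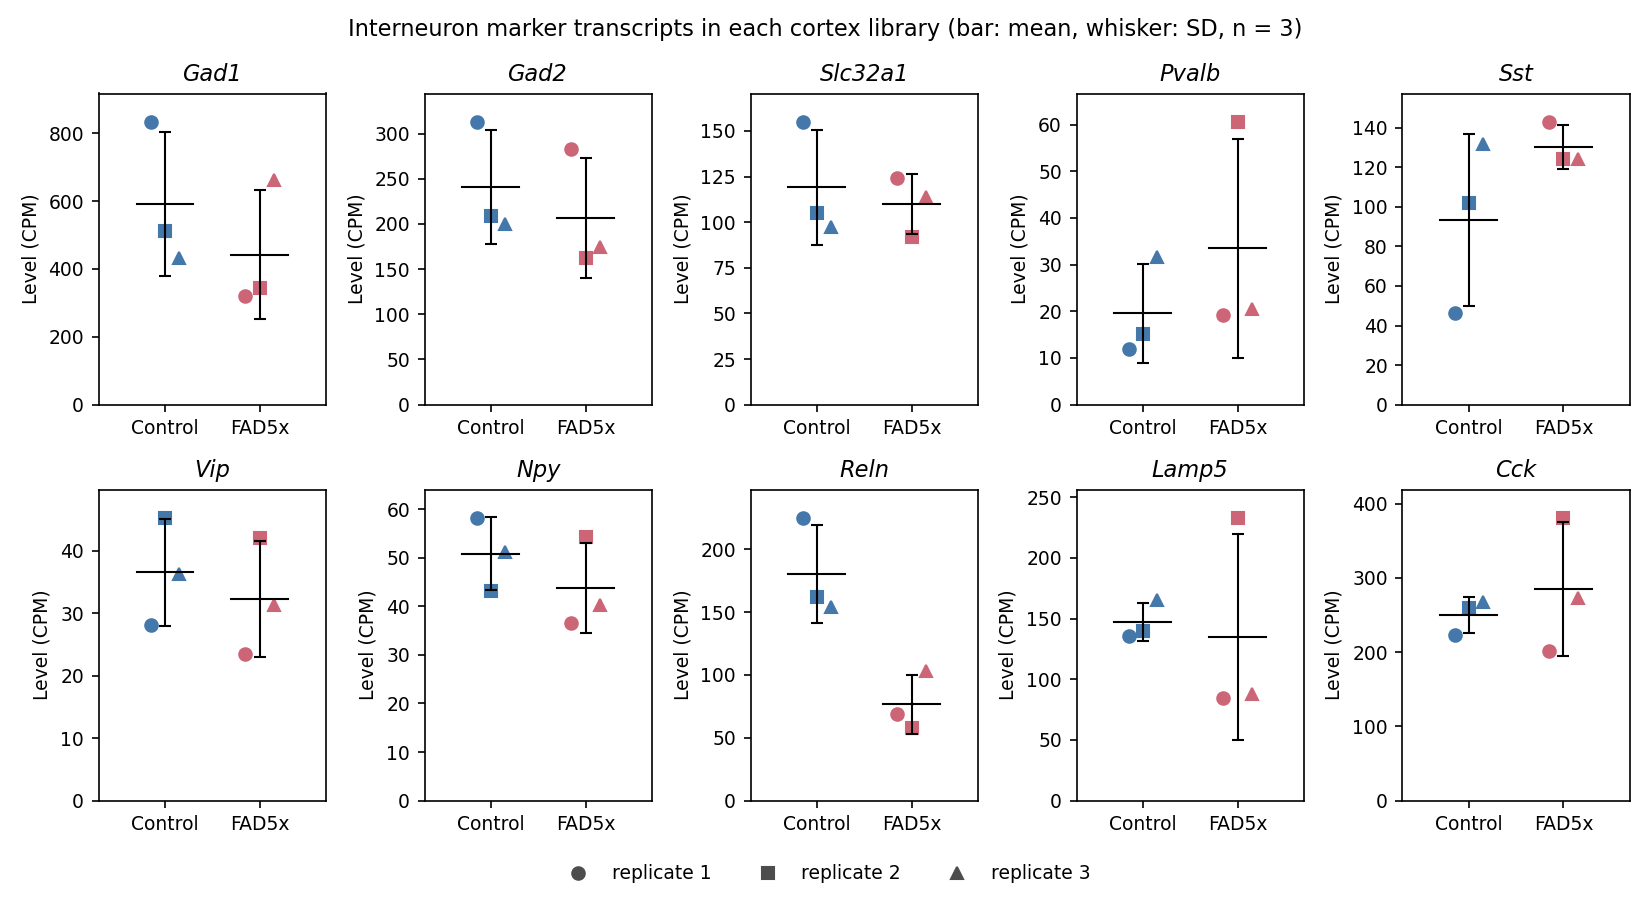
Level of each interneuron gene (CPM, linear axis from 0) in the 3 Control and 3 FAD5x libraries, with the group mean as a bar and the SD as a whisker. Reln is the only gene whose groups do not overlap, and Pvalb, Lamp5 and Cck are highest in FAD5x replicate 2. Groups also did not overlap for 27.4% of all tested genes in either direction, and for 13.2% with FAD5x lower. A single such gene among the members is therefore no more than this background.

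Library totals ran from 17363946 to 24137936 counts, and every member had at least 216 counts in every library, so counting error is small beside the spread between libraries. The libraries did not have the same make-up. Markers of cortical excitatory neurons were present in all 6 libraries, summing to 4281 to 8900 CPM over 12 genes with none at 0. Markers of olfactory bulb neurons (6 genes, among them Eomes, Cdhr1, Doc2g and Th) summed to 24.9 and 36.0 CPM in FAD5x replicates 1 and 2. FAD5x replicate 3 reached 276 CPM, and Control replicates 1 to 3 reached 523, 281 and 207 CPM. Markers of striatal neurons (10 genes, among them Drd1, Drd2 and Adora2a) summed to 2163 CPM in FAD5x replicate 1 and to 306 to 406 CPM in the other 5 libraries. Neither list held a gene called by edgeR or limma-voom. At an unadjusted p below 0.05, 2 bulb markers were lower and 1 striatal marker higher, and DESeq2 called 2 bulb markers lower and 0 striatal markers. Control replicate 1 had 3 Xist counts, against 10346 to 22631 in the other 5 libraries. Both neighbouring regions hold GABAergic neurons, so these sums are set beside the members below.

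Reln (ENSMUSG00000042453) encodes reelin, a large secreted glycoprotein that guides neuronal migration in development and acts on synapses in the adult, where it is made by interneurons of the outer layers. FAD5x replicates 1 to 3 held 69.0, 57.5 and 103 CPM of it. Control replicates 1 to 3 held 225, 162 and 154 CPM. Every FAD5x library thus lay below every Control library, as was the case in this direction for 13.2% of all tested genes. Means were 76.4 ± 23.6 CPM in FAD5x and 180.1 ± 38.8 CPM in Control (SD, n = 3 libraries per group). FAD5x replicates 1 and 2 have related library names, and whether they come from the same animal is not given, in which case FAD5x would hold 2 animals. By a chi-square on raw counts this pair differed no less than the other FAD5x pairs. That measure grows with depth, and FAD5x replicates 1 and 2 were the deepest libraries. It therefore cannot tell whether they share an animal, which was not tested. The group difference of Reln was 2.36-fold (log2 fold change -1.24 ± 0.24 SE, 95% interval -1.79 to -0.68, adjusted p = 0.0365 by the edgeR quasi-likelihood test). In bulk tissue fewer reelin cells and less Reln RNA per cell cannot be told apart.

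The call of Reln was close to the threshold. It was lost with library totals alone (adjusted p = 0.0687), with length and GC trends of each library taken out (log2 fold change -0.93, adjusted p = 0.0949), and with FAD5x replicates 1 and 2 summed as 1 sample (-1.12, adjusted p = 0.0548). It was also lost without FAD5x replicate 1 (adjusted p = 0.0999) and without Control replicate 1 (0.134), 2 (0.105) or 3 (0.0829). The log2 fold change stayed between -1.51 and -1.05 when single libraries were left out. Its lowest levels were in FAD5x replicates 1 and 2, the libraries with the lowest bulb marker sums, and its highest in Control replicate 1, the library with the highest. FAD5x replicate 3 had a bulb marker sum of 276 CPM, inside the Control range of 207 to 523 CPM. The single bulb markers, named with their values in view, were divided there. Th, Eomes, Doc2g and Cdhr1 lay inside the Control range. Barhl2 (0.94 against 1.62 to 4.02 CPM) and Slc17a6 (15.2 against 17.4 to 23.7 CPM) lay below every Control library. The Reln level of FAD5x replicate 3, 103 CPM, lay below the lowest Control level of 154 CPM. In an added fit of this library alone against Control, which called 2.47% of its genes lower, and with its spread taken to be that of Control, the log2 fold change was -0.81 ± 0.23 (adjusted p = 0.0821). How much of the Reln difference moves with olfactory bulb content was not tested.

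**Figure D2:**
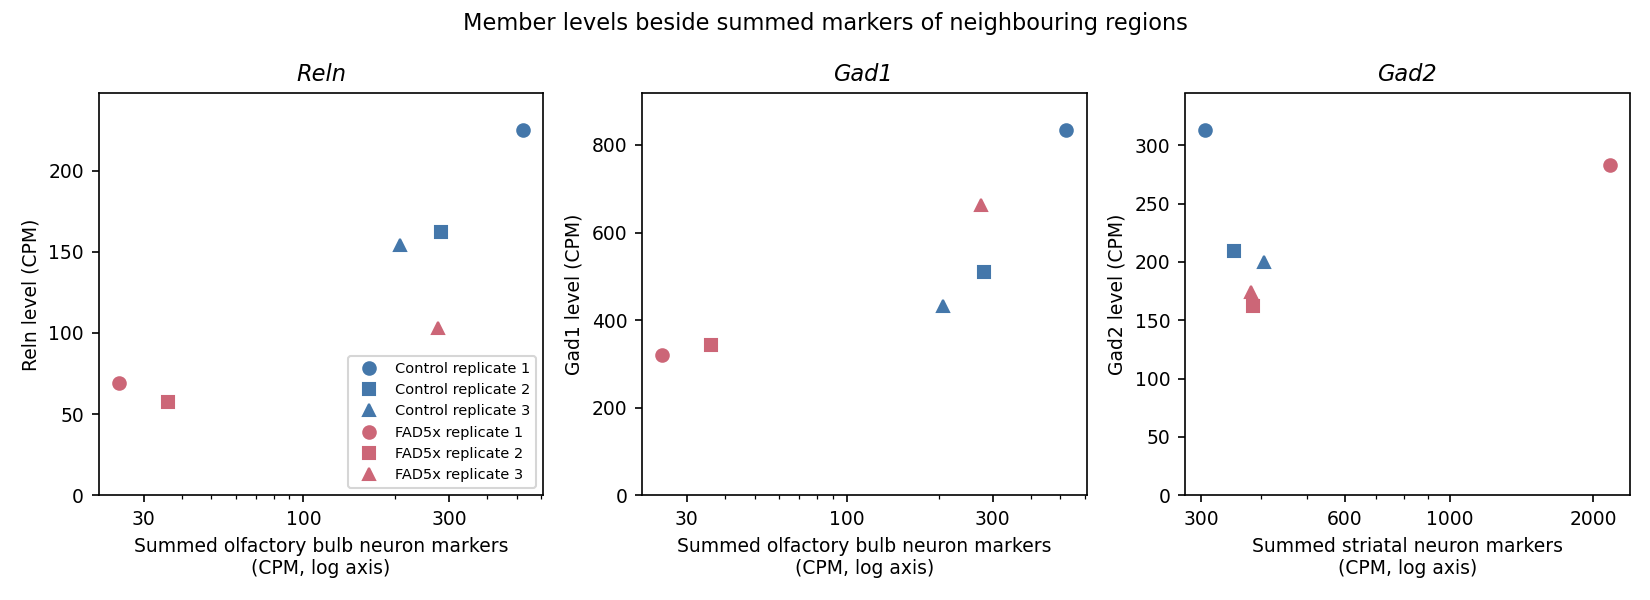
Level of Reln and Gad1 (CPM, linear axis) against the summed olfactory bulb neuron markers, and of Gad2 against the summed striatal neuron markers (CPM, log axis), with 1 point per library. FAD5x replicates 1 and 2 lie at the left of the bulb axis at 24.9 and 36.0 CPM, and FAD5x replicate 1 lies at the right of the striatal axis at 2163 CPM.

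Reelin acts through the receptors Lrp8 and Vldlr, the adaptor Dab1 and the kinase Fyn, and Pafah1b1 is a dynein regulator linked to the same pathway. No gene of the list of peptide and reelin receptors (16 of 18 tested) was called by edgeR or by limma-voom, whereas 4 were lower and 0 higher at an unadjusted p below 0.05, and DESeq2 called 2 lower, Fyn and Sstr4. Fyn measured 106, 93.9 and 129 CPM over FAD5x replicates 1 to 3 and 187, 171 and 153 CPM over those of Control (log2 fold change -0.63 ± 0.16, adjusted p = 0.0682). Lrp8 measured 75.0, 64.5 and 119 CPM over FAD5x replicates 1 to 3 and 152, 133 and 122 CPM over those of Control (-0.65 ± 0.23, adjusted p = 0.153). For both genes the groups did not overlap, as for 4 of the 16 tested genes of this list and 13.2% of all tested genes in this direction. The FAD5x library nearest to Control was replicate 3 for Fyn and Lrp8, as for Reln. For Sstr1 and Sstr4, which also did not overlap, replicate 3 lay farthest from Control. Dab1 had log2 fold change 0.09 ± 0.12, Vldlr -0.13 ± 0.18 and Pafah1b1 -0.20 ± 0.17, with adjusted p = 0.691, 0.727 and 0.542. Fyn, Lrp8, Dab1 and Vldlr were picked with their values in view.

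The markers shared by all interneurons did not pass the test. Gad1 encodes GAD67, the enzyme that makes most of the GABA in the cell body, and FAD5x replicates 1 to 3 held 321, 343 and 662 CPM of its transcript. Control replicates 1 to 3 held 834, 511 and 432 CPM. The groups overlapped, because FAD5x replicate 3 exceeded Control replicates 2 and 3 (log2 fold change -0.42 ± 0.34 SE, 95% interval -1.22 to 0.37, adjusted p = 0.531). Gad1 and the bulb marker sum shared their highest library, Control replicate 1, and their 2 lowest, FAD5x replicates 1 and 2. With FAD5x replicate 3 alone against Control the log2 fold change of Gad1 was 0.16 ± 0.34, of the opposite sign (adjusted p = 0.836).

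Gad2 encodes GAD65, the form held at synaptic terminals, and measured 283, 162 and 174 CPM over FAD5x replicates 1 to 3 and 313, 209 and 200 CPM over those of Control. FAD5x replicate 1, the library with the high striatal sum, was far above the other FAD5x libraries, and Control replicate 1 was highest of all (log2 fold change -0.22 ± 0.26, 95% interval -0.82 to 0.37, adjusted p = 0.673). The ratio of Gad1 to Gad2 CPM was 1.13 in FAD5x replicate 1 and 3.81 in FAD5x replicate 3, with 2.11 to 2.67 in the other 4 libraries. The 2 enzymes thus did not keep a fixed proportion across libraries of the same group. Slc32a1, the vesicular transporter that loads GABA, measured 124, 92.1 and 114 CPM over FAD5x replicates 1 to 3 and 155, 105 and 97.2 CPM over those of Control (-0.11 ± 0.20, 95% interval -0.57 to 0.34, adjusted p = 0.791). Control replicate 1 was the highest library for all 3 of these genes, and without it the log2 fold changes of Gad1, Gad2 and Slc32a1 were -0.09, 0.01 and 0.12. The part of striatal or bulb neurons in these levels was not tested.

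Pvalb encodes parvalbumin, the calcium buffer of fast-spiking basket and chandelier cells. FAD5x replicates 1 to 3 held 19.3, 60.6 and 20.5 CPM, and Control replicates 1 to 3 held 11.9, 15.1 and 31.6 CPM. It varied most of the 10 genes, by 5.10-fold between FAD5x replicate 2 and Control replicate 1. The log2 fold change was 0.78 ± 0.55 SE (95% interval -0.54 to 2.09, adjusted p = 0.479), and without FAD5x replicate 2 it was 0.04. These data therefore bound the group difference of Pvalb only loosely in either direction.

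Among companions of the parvalbumin class, 0 of 13 genes were called by edgeR, with 2 higher and 0 lower at an unadjusted p below 0.05. Limma-voom called 0 and DESeq2 1 higher, Unc5b, a netrin receptor. Here and below, genes named only as calls of DESeq2 were named with their values in view. Cplx1, a complexin of fast synapses, had log2 fold change 0.19 ± 0.19 (adjusted p = 0.619), and Kcnc1, a Kv3 potassium channel of fast-spiking cells, -0.04 ± 0.22 (adjusted p = 0.940). Syt2, a fast synaptotagmin singled out after its values were seen, measured 39.7, 80.6 and 21.8 CPM over FAD5x replicates 1 to 3 and 19.2, 14.0 and 40.2 CPM over those of Control. Like Pvalb it was highest in FAD5x replicate 2, and in Control it was highest in replicate 3. The other companions were divided. Kcnc1, Kcnc2, Kcns3, Ank1 and Cplx1 were also highest in FAD5x replicate 2. Tac1, Unc5b and Cox6a2 were highest in FAD5x replicate 1, Vipr2 in FAD5x replicate 3, and Erbb4, Pthlh and Eya1 in Control libraries. FAD5x replicate 2 also had the highest sums of pan-neuronal markers (8841 CPM, against 5316 to 6518 CPM in the other 5) and of cortical excitatory markers (8900 CPM, against 4281 to 7573 CPM). Whether these sums bear on Pvalb was not tested.

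Sst encodes somatostatin, the peptide of dendrite-targeting interneurons. FAD5x replicates 1 to 3 lay close together at 143, 124 and 124 CPM, and Control replicates 1 to 3 held 46.5, 102 and 132 CPM. Control replicate 3 lay inside the FAD5x range and Control replicate 1 at less than any other library. The log2 fold change was 0.48 ± 0.33 SE (95% interval -0.29 to 1.25, adjusted p = 0.460), and without Control replicate 1 it was 0.16. Neuropeptide Y, a peptide found in part of the somatostatin cells and in neurogliaform cells, is encoded by Npy, which measured 36.6, 54.3 and 40.3 CPM over FAD5x replicates 1 to 3 and 58.2, 43.1 and 51.2 CPM over those of Control (-0.22 ± 0.18, 95% interval -0.62 to 0.19, adjusted p = 0.537). In Control replicate 1 Npy was at its highest and Sst at its lowest, so that the ratio of Sst to Npy CPM was 0.798 there and 2.28 to 3.90 in the other 5 libraries.

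Of 14 companions of the somatostatin class, edgeR called 2 lower and 0 higher, with 1 higher at an unadjusted p below 0.05, 0 by limma-voom and 0 by DESeq2. Etv1, an ETS transcription factor also expressed in layer 5 pyramidal cells, measured 47.4, 52.8 and 50.1 CPM over FAD5x replicates 1 to 3 and 113, 77.5 and 77.6 CPM over those of Control (log2 fold change -0.84 ± 0.17, adjusted p = 0.0373). Grin3a, an NMDA receptor subunit, measured 40.7, 33.1 and 32.3 CPM over FAD5x replicates 1 to 3 and 69.8, 53.9 and 55.7 CPM over those of Control (-0.76 ± 0.15, adjusted p = 0.0369). Both genes fell while Sst itself did not pass the test, and the list median was -0.07. Both calls were lost when any 1 Control library was left out (adjusted p = 0.0745 to 0.110 for Etv1 and 0.0909 to 0.143 for Grin3a), and after removal of the length and GC trends (0.139 and 0.0585). Etv1 and Grin3a also lost their calls without FAD5x replicate 1 (adjusted p = 0.101 and 0.0559) or FAD5x replicate 3 (0.0622 and 0.0677) and with library totals alone (0.0511 and 0.0566).

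Vip encodes vasoactive intestinal peptide, made by interneurons that inhibit other interneurons. It measured 23.5, 42.1 and 31.3 CPM over FAD5x replicates 1 to 3 and 28.2, 45.3 and 36.3 CPM over those of Control, with fully interleaved groups (log2 fold change -0.18 ± 0.24 SE, 95% interval -0.74 to 0.38, adjusted p = 0.712). Lamp5, a lysosome-associated membrane protein that marks neurogliaform cells, measured 84.2, 233 and 87.5 CPM over FAD5x replicates 1 to 3 and 136, 140.1 and 165 CPM over those of Control. FAD5x replicate 2 was above every Control library and the other 2 FAD5x libraries were below every Control library (-0.12 ± 0.38, 95% interval -1.01 to 0.77, adjusted p = 0.890). Without FAD5x replicate 2 Lamp5 was called lower (-0.77 ± 0.14, adjusted p = 0.0161), in a fit that called 2.18% of its tested genes lower. Without FAD5x replicate 1 or 3 the log2 fold change was 0.13 or 0.11. Lamp5 is also expressed by pyramidal cells of the outer layers.

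Cck encodes cholecystokinin, a peptide of basket cells that also carry the cannabinoid receptor Cnr1, and of many pyramidal cells. It measured 202, 381 and 273 CPM over FAD5x replicates 1 to 3 and 223, 260.1 and 268 CPM over those of Control (log2 fold change 0.19 ± 0.22 SE, 95% interval -0.32 to 0.70, adjusted p = 0.674). FAD5x replicates 1 and 2 were the lowest and the highest of the 6 libraries, and the 3 Control libraries lay between them. Its log2 fold change was -0.06 without FAD5x replicate 2 and -0.05 after removal of the length and GC trends.

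**Figure D3:**
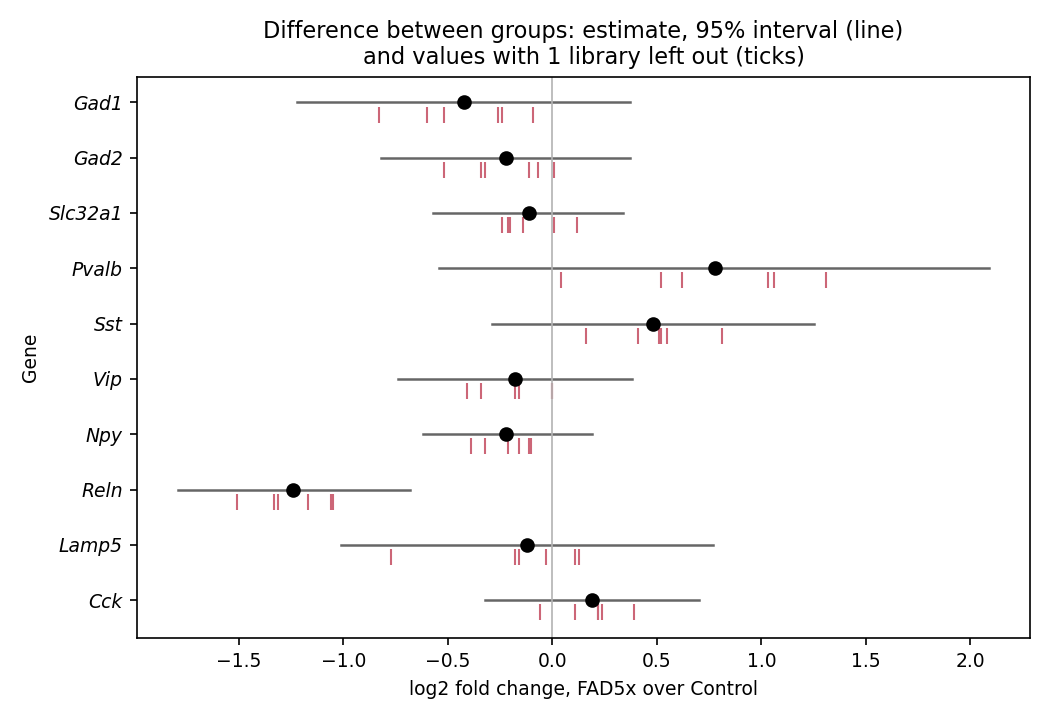
Log2 fold change of FAD5x over Control for each interneuron gene (point), its 95% interval from the edgeR fit (line), and the value with each library left out in turn (ticks). The interval of Reln, -1.79 to -0.68, is the only 1 of the 10 that does not reach 0, and the ticks of Pvalb run from 0.04 to 1.31.

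Of 14 tested companions of the caudal classes (15 in the list, with Chat under the filter on low counts), 0 were called by edgeR, with 3 higher and 4 lower at an unadjusted p below 0.05. Limma-voom called 0, and DESeq2 called 1 higher, Lsp1, and 2 lower, Nxph1 and Serpinf1. Calb2, the calcium buffer calretinin of part of the VIP cells and of many olfactory bulb cells, measured 9.03, 17.1 and 146 CPM over FAD5x replicates 1 to 3 and 255, 156 and 98.7 CPM over those of Control. Its split between FAD5x replicates 1 and 2 and the other 4 libraries was that of the bulb markers (log2 fold change -1.57 ± 1.08, adjusted p = 0.472). Without FAD5x replicate 3 Calb2 was called lower (-3.70, adjusted p = 0.00815). That fit called 597 genes in either direction, and its share called lower was not computed. Cnr1 had log2 fold change 0.07 ± 0.17 (adjusted p = 0.858). The part of olfactory bulb cells in Calb2 was not tested.

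Transcription factors that specify interneurons gave the same split in part. Of 16 tested (17 in the list, with Nkx2-1 under the filter), 0 were called by edgeR, with 1 higher and 2 lower at an unadjusted p below 0.05. Limma-voom called 0 and DESeq2 1 lower, Nr2f2. The list median was -0.41. Dlx1, which specifies GABAergic neurons of forebrain and bulb, measured 28.3, 34.4 and 97.2 CPM over FAD5x replicates 1 to 3 and 191, 106 and 68.1 CPM over those of Control (log2 fold change -1.19 ± 0.57, adjusted p = 0.297). Without FAD5x replicate 3 Dlx1 was called lower (-1.95, adjusted p = 0.0394), in the fit that called 597 genes in either direction. Sp8, a factor of caudal and bulb interneurons singled out after its values were seen, had 3.26 and 3.63 CPM in FAD5x replicates 1 and 2, 29.1 CPM in FAD5x replicate 3, and 82.4, 39.3 and 28.1 CPM in Control. Satb1, a chromatin organiser of medial eminence cells, measured 72.1, 110.4 and 40.2 CPM over FAD5x replicates 1 to 3 and 84.0, 98.8 and 121 CPM over those of Control (-0.45 ± 0.33, adjusted p = 0.492). Lhx6, the factor shared by parvalbumin and somatostatin cells and singled out in the same way, measured 18.9, 26.2 and 11.2 CPM over FAD5x replicates 1 to 3 and 7.54, 14.6 and 18.8 CPM over those of Control (0.46 ± 0.39, adjusted p = 0.548). In Control replicate 1 Lhx6, Sst and Pvalb were each at their lowest of 6 libraries, while Dlx1, Sp8 and Gad1 were at their highest. This set was picked with its values in view, and related genes differed from it. Satb1 was lowest in FAD5x replicate 3, as was Sox6 of the same list. Etv1 and Grin3a of the somatostatin list were at their highest in Control replicate 1.

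GABA is cleared by plasma membrane transporters and broken down by Abat and Aldh5a1. All 10 genes of this list had log2 fold changes below 0, as did 8273 of 17074 tested genes, with a list median of -0.37, and 0 were called by edgeR, with 0 higher and 3 lower at an unadjusted p below 0.05. Limma-voom called 0 and DESeq2 2 lower, among them the transporter Slc6a11. Slc6a11, the astrocyte transporter GAT3, was named after its values were seen and measured 191, 167 and 259 CPM over FAD5x replicates 1 to 3 and 555, 378 and 267 CPM over those of Control (-0.96 ± 0.28, adjusted p = 0.108). Its groups did not overlap, as for 27.4% of all tested genes in either direction. Glul, the glutamine synthetase of astrocytes, had log2 fold change -0.17 ± 0.20 (adjusted p = 0.671).

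The peptide members are cut from precursors by prohormone convertases and stored with granins. Of 11 genes of this machinery edgeR called 1 lower, Pcsk1, and 0 higher, with 1 higher at an unadjusted p below 0.05, 0 by limma-voom and 1 by DESeq2, Pcsk1n. Pcsk1, the convertase PC1/3, measured 14.4 to 17.4 CPM over the FAD5x libraries and 30.4, 26.2 and 29.0 CPM over those of Control (log2 fold change -0.81 ± 0.14, adjusted p = 0.0232). The FAD5x libraries lay together and well below Control, including replicate 3, and the call held with length and GC trends taken out. It was lost without FAD5x replicate 1 (adjusted p = 0.0601) or without any 1 Control library (0.0868 to 0.119). Pcsk2, the other convertase, measured 289, 455 and 164 CPM over FAD5x replicates 1 to 3 and 292, 280.3 and 382 CPM over those of Control (-0.07 ± 0.34, adjusted p = 0.931).
Among receptors, Sstr1 and Sstr4, which bind somatostatin, had log2 fold changes of -0.68 ± 0.26 and -0.95 ± 0.29 (adjusted p = 0.187 and 0.120). The other 2 tested somatostatin receptors, Sstr2 and Sstr3, had -0.04 ± 0.43 and 0.04 ± 0.16 (0.973 and 0.904), and the VIP receptor Vipr1 had 0.45 ± 0.21 (0.263). Adcyap1r1, a receptor of the VIP-related peptide PACAP, had -0.17 ± 0.18 (0.643). Vipr2, a VIP receptor that is also in the parvalbumin list, had 1.03 and 0.533 CPM in FAD5x replicates 1 and 2 against 31.2 CPM in FAD5x replicate 3 and 9.11 to 29.7 CPM in Control. Pcsk2, the somatostatin receptors, Vipr1 and Vipr2 were picked with their values in view.

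**Figure D4:**
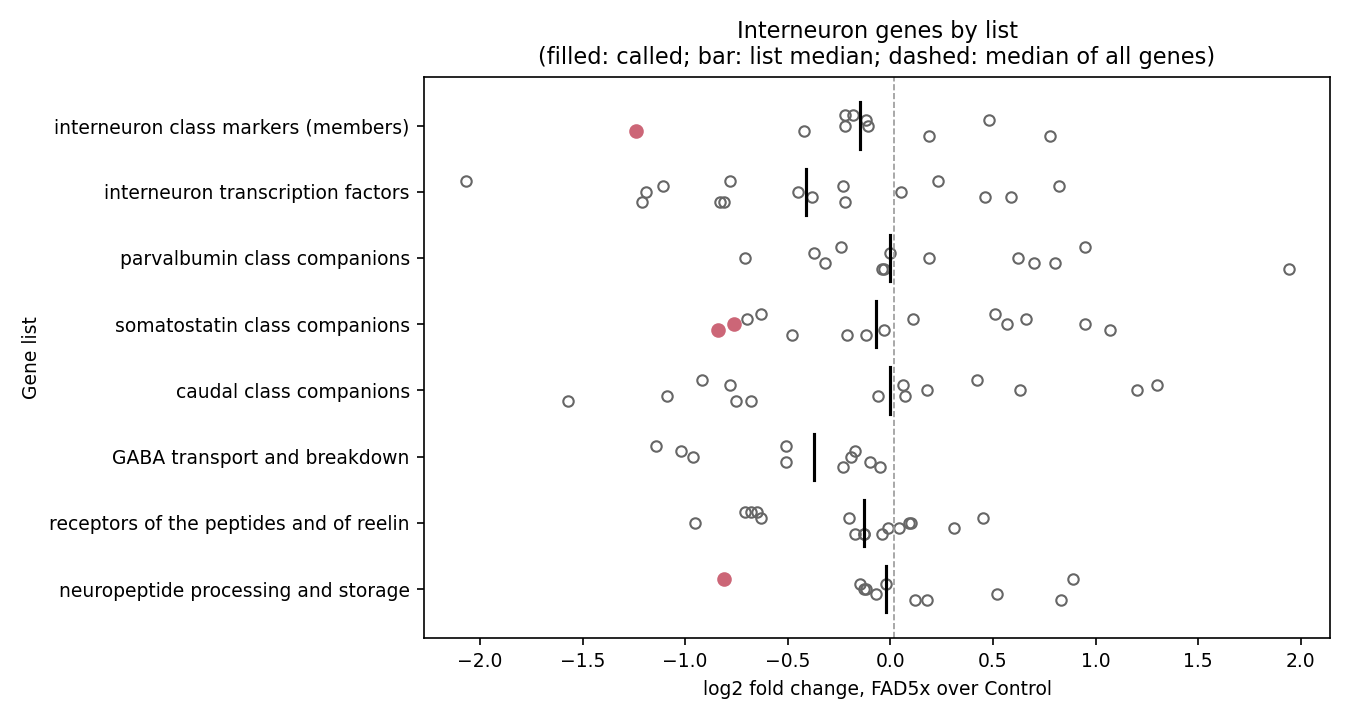
Log2 fold change of FAD5x over Control for the tested genes of the members' list and the 7 companion lists (points), with called genes filled, the list median as a bar and the median of all tested genes, 0.02, as a dashed line. The 4 filled points, Reln, Etv1, Grin3a and Pcsk1, all lie below 0. The 7 companion lists hold 97 distinct genes, of which 3 were called. That is near the 3.15% called over all tested genes.

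Within single libraries the members did not move as 1 group. Relative to its mean over the 6 libraries on the log2 scale, Control replicate 1 ranged from -1.18 for Sst and -0.93 for Pvalb to 0.78 for Gad1 and 0.97 for Reln. FAD5x replicate 2 was lowest for Reln, followed by Gad1 at -0.51, and reached 0.82 for Lamp5 and 1.42 for Pvalb. Of the 10 genes, 5 were highest in Control replicate 1 and 3 in FAD5x replicate 2, while 5 were lowest in FAD5x replicate 1. Control replicates 2 and 3 and FAD5x replicate 3 held no member at its lowest.

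**Figure D5:**
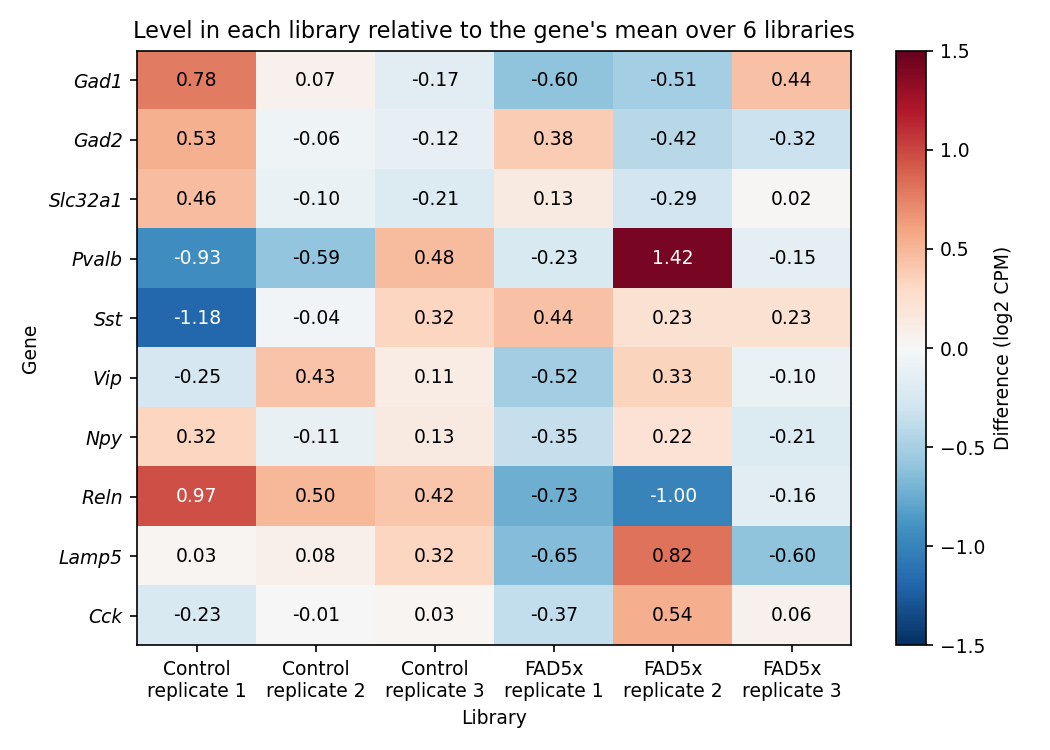
Difference of each interneuron gene in each library from its own mean over the 6 libraries (log2 CPM, colour and number). Control replicate 1 combines high Gad1 (0.78) and Reln (0.97) with low Sst (-1.18) and Pvalb (-0.93), and FAD5x replicate 2 combines high Pvalb (1.42) and Lamp5 (0.82) with low Reln and Gad1 (-0.51).

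Class markers were also set against the geometric mean of Gad1, Gad2 and Slc32a1 in the same library, which removes the scaling between libraries. FAD5x replicates 1 to 3 had such means of 224, 172 and 236 CPM, and Control replicates 1 to 3 of 343, 224 and 203 CPM. On the log2 scale the ratio of Reln to it was -1.70, -1.59 and -1.20 in FAD5x and -0.61, -0.47 and -0.40 in Control, without overlap. This ratio uses the same Reln levels and is no separate support. By level, 13.2% of all tested genes did not overlap in this direction, and the share for such ratios was not computed. Gad2, part of the geometric mean, measured 283 CPM in FAD5x replicate 1 against 162 and 174 CPM in FAD5x replicates 2 and 3. For Sst the ratio was -0.65, -0.48 and -0.93 in FAD5x and -2.88, -1.13 and -0.63 in Control, and for Pvalb -3.54, -1.51 and -3.53 against -4.85, -3.89 and -2.68. The mean ratios of Npy differed by 0.03, of Vip by 0.06 and of Lamp5 by -0.03 (FAD5x minus Control), each less than the SD within either group. For Cck the mean ratios differed by 0.40, with overlapping groups. These ratios are a description and were given no test.

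Per kilobase of transcript, the members spanned a wide range of levels. Divided by the length of the principal annotated transcript, the mean over the 6 libraries was highest for Cck (342 CPM per kb), Sst (155) and Gad1 (154), and lowest for Pvalb (27.1) and Vip (22.5). Reln, for which no such transcript was tagged, had 5.40 CPM per kb of its annotated exons. Over annotated exons Cck (205) and Sst (155) again led, and Gad1 had 67.7, so its place depends on which exons are counted. The labels say nothing of strand in the counting, and genes that overlap Gad1, Gad2, Reln or Slc32a1 had at most 1.60 CPM in any library.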

How the data were processed

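RNA from cortex was measured in 3 FAD5x and 3 Control libraries. The authors deposited raw counts per gene for 47729 lines, and 1 line with a cell that was not a number was left out. The build GRCm39 and the programs STAR 2.7.11b, featureCounts, cutadapt, limma and edgeR 3.38.4 are listed, per the submitters' processing notes. Library preparation and parameters are not given in the sources used here. Each column name equals a library name in the labels. Totals were 17363946 to 24137936 counts per library. Symbols, exon lengths and GC content came from GENCODE M21, on another build than the counts, by identifier (47223 of 47728 matched).

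The test was that of edgeR 4.0.16 (R 4.3.3): filterByExpr on the groups, TMM scaling, an intercept and genotype, the robust quasi-likelihood F-test, two-sided, with Benjamini-Hochberg adjustment over 17074 genes and calls below 0.05. The SE was taken from the estimate and its F statistic, and intervals use the t distribution. CPM used the scaled totals. The alternatives were limma-voom (limma 3.58.1), DESeq2 1.42.0, other scalings, no low-count filter, a replicate block, length and GC trends taken out by offsets (lowess, span 0.3), FAD5x replicates 1 and 2 summed, and each library left out; 2 were added after the data were seen. On simulated counts for 17074 genes drawn independently of each other, the edgeR steps recovered 82% of 100 genes set to a 2-fold change and 97% of 100 set to 4-fold, all taken from above the median level, and made 16 false calls in 16557 genes.

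The members, 7 companion lists and 12 marker lists of other cells were chosen with earlier results of these data known. The text names all members, up to 4 called genes of each companion list or else the 2 with the highest level, and up to 2 called genes of each marker list; others are said to be picked or singled out with their values seen. A gene of the GABA transport list that this rule names is not reported here.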

Additional observations from a re-analysis of the deposited data

How the results depend on the processing

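The number of genes called, 537, was 1485 with DESeq2, 1063 with no filter on low counts, 72 with the replicate block, 81 to 989 with single libraries left out, 897 with FAD5x replicate 3 alone against Control and 34 with FAD5x replicate 1 and Control replicate 1 left out. The last 2 settings were chosen after seeing the data. The number of members called, 1 (Reln), was 0 with library totals only, with the replicate block, with length and GC trends taken out, with FAD5x replicates 1 and 2 summed, and with FAD5x replicate 1 and Control replicate 1 left out. It was 0 to 2 with single libraries left out. With FAD5x replicate 3 alone it was 1, and that gene was Lamp5 (adjusted p = 0.0486), not Reln. The number called over the companion lists, 3, was 14 with DESeq2, 9 with no filter, 0 with the replicate block, 1 with length and GC trends taken out, 5 with FAD5x replicates 1 and 2 summed, 0 to 10 with single libraries left out, 7 with FAD5x replicate 3 alone and 0 with FAD5x replicate 1 and Control replicate 1 left out. The cause of these changes was not tested. The companion lists hold 97 distinct genes, not all of them tested, and the main fit called 3.15% of all tested genes. The log2 fold change of Reln was below 0 in every setting run, from -1.51 to -0.81, and it was called with limma-voom, DESeq2, RLE or upper quartile scaling, no filter, and without FAD5x replicate 2 or 3.

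Signs turned in genes that were not called. Gad1 had a log2 fold change of 0.16 with FAD5x replicate 3 alone and 0.10 with FAD5x replicate 1 and Control replicate 1 left out. The latter setting gave 0.04 for Slc32a1, 0.01 for Npy, 0.08 for Lamp5, 0.21 for Kcnc1, -0.12 for Cnr1 and 0.00 for Adcyap1r1. Gad2 had 0.01, Slc32a1 0.12, Kcnc1 0.05 and Cnr1 -0.08 without Control replicate 1, and Slc32a1 had 0.01 and Cck -0.06 without FAD5x replicate 2. Vip had 0.00, Lamp5 0.13 and Kcnc1 0.11 without FAD5x replicate 1, and Lamp5 had 0.11 and Kcnc1 0.04 without FAD5x replicate 3. With length and GC trends taken out Cck had -0.05, Cplx1 -0.02 and Kcnc1 0.04. With FAD5x replicate 3 alone Cnr1 had a value that rounds to 0.00. With single libraries left out the values ran from -0.52 to 0.01 for Gad2, -0.24 to 0.12 for Slc32a1, -0.41 to 0.00 for Vip, -0.77 to 0.13 for Lamp5, -0.06 to 0.39 for Cck, -0.29 to 0.11 for Kcnc1 and -0.08 to 0.22 for Cnr1.

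Replicate numbers are shared by the groups in the labels only as numbers. The deviations of same-numbered libraries from their group means correlated across genes at -0.043, -0.093 and -0.305 for numbers 1, 2 and 3. Differently numbered libraries gave -0.209 to 0.299. Deviations within a group sum to 0, which ties these values together, so they cannot decide whether libraries were paired. The replicate block moved Reln to -1.26 on the log2 scale, with adjusted p = 0.113. Each member had at least 216 counts in each library, so the number of libraries, not depth, limits precision.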

Other observations

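Oligodendrocyte markers (8 genes) summed to 3899 to 7609 CPM in FAD5x and 2809 to 4142 CPM in Control, and Mobp, a myelin protein gene, rose (log2 fold change 1.09 ± 0.24 SE, adjusted p = 0.0474 by the edgeR quasi-likelihood test). Of these markers 3 were higher and 0 lower at an unadjusted p below 0.05, and limma-voom called 1 and DESeq2 3 higher. The call of Mobp was lost without FAD5x replicate 1 (adjusted p = 0.107) or without Control replicate 1 (0.188), 2 (0.173) or 3 (0.0781). Microglia markers (7 genes) summed to 352 to 762 CPM in FAD5x and 242 to 365 CPM in Control, and C1qa, a complement gene, rose (2.24 ± 0.26, adjusted p = 0.00726), a call lost with FAD5x replicate 1 and Control replicate 1 left out (adjusted p = 0.0821). Of the microglia markers 5 were higher and 0 lower at an unadjusted p below 0.05, and limma-voom called 1 and DESeq2 2 higher. Astrocyte markers (7 genes, 0 called by edgeR, limma-voom or DESeq2, with 1 higher at an unadjusted p below 0.05) summed to 4110.2 to 6845 CPM in FAD5x and 4496 to 6427 CPM in Control. Endothelial markers (6 genes) summed to 145 to 193 CPM and 179 to 238 CPM.

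Meningeal fibroblast markers (7 genes) summed to 22.1 to 112 CPM in FAD5x and 139 to 425 CPM in Control, without overlap. Markers of Cajal-Retzius cells, the reelin cells of the early cortex, were low in both groups: Trp73 had 0.485 to 3.34 CPM in FAD5x and 0.839 to 2.37 CPM in Control, Lhx1 had 0 to 0.157 CPM and 0.280 to 0.393 CPM, and Lhx5 0 to 0.888 CPM and 0.506 to 1.34 CPM. Ebf3 had 1.81, 0.533 and 2.25 CPM over FAD5x replicates 1 to 3 and 3.91, 3.82 and 2.46 CPM over those of Control. Its groups did not overlap, as for 13.2% of all tested genes in this direction (log2 fold change -1.15 ± 0.49, adjusted p = 0.225 by the edgeR quasi-likelihood test). Trp73, Lhx1, Lhx5, Ebf3 and the next gene were named with their values in view. The whole list of 6 genes, led by Cacna2d2, which other neurons also express, summed to 29.3 to 59.5 CPM in FAD5x and 36.9 to 45.5 CPM in Control. Hippocampal markers (8 genes) summed to 272 to 412 CPM and 232 to 308 CPM, and choroid plexus markers (7 genes) to 5.18 to 11.7 CPM and 10.8 to 20.5 CPM. No gene of the endothelial, fibroblast, Cajal-Retzius, hippocampal or choroid plexus lists was called by edgeR or limma-voom. At an unadjusted p below 0.05, 3, 4, 1, 2 and 0 genes of these lists were lower and 0, 0, 0, 1 and 0 higher, and DESeq2 called 1, 3, 0, 2 and 0 lower. The part of these cells in the members' levels was not tested.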
